A study of Rattus norvegicus with 15 samples.

Results

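Whole blood of rats taken 3 d after deep venous thrombosis (DVT), a clot in a deep vein, had been modelled was compared with blood of sham rats for its circular RNAs (circRNAs). The members of the comparison are the 7952 circRNAs, 18.3% of the 43472 in the table, that were above 0 in at least 3 of the 6 libraries of these 2 groups. The animals were males of the outbred Sprague-Dawley strain, aged 6 to 8 weeks, with a body weight between 250 and 300 g. The 3 sham libraries are labelled 0 h and the 3 libraries of the 3 d group 72 h after modelling; how the thrombosis was modelled is not given in the sources used here. The titles of all 6 carry the same prefix, ending in A&B. Whether each library of a group stands for its own animal is not stated in the labels; the p-values therefore measure only the spread between these libraries, which may be technical. The other 9 libraries of the series (1 h, 6 h and 12 h, 3 each) entered the model fit, so that all 5 groups share an estimate of the spread. Titles at 1 h carry the prefix ending in A&B, and those at 6 h and 12 h a prefix ending in C.

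A circRNA forms when a splice donor joins an acceptor upstream of it, which closes the exons between them into a loop. Having no free ends, circRNAs resist the exonucleases that degrade linear RNA, and they are abundant in blood, where platelets and red cells have no nucleus to renew their transcripts. Some are known to bind microRNAs or proteins. CircRNAs carry running numbers in the table, with no host gene, coordinate or sequence beside them, so they are given here by number, with neither a known function nor a sequence, and the tissue could not be checked against marker genes. In whole blood, fewer cells of a type and less circRNA per cell cannot be told apart.

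Values are SRPBM, back-spliced reads per 1e9 mapped reads of a library, and M stands for 1e6. Values above 0 were whole multiples of a step in each library, which gave the mapped reads (66.0 to 89.7 M in the 6 libraries) and the reads behind each value. The smallest value stands for 2 reads, so a 0 is written as listed at 0 and is not read as absence. Among circRNAs at the limit of the rule, 2309 were listed in exactly 3 of the 6 libraries, with a median of 5 reads where listed, and 3902 just outside it were listed in 2, with a median of 4 reads. At the other end, 1467 members (18.4%) were listed in all 6 libraries, with a median of 33 reads.

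Sham replicate 2 stood apart from the other 5 libraries. It listed 2127 of the members, against 6180 and 7096 in sham replicates 1 and 3 and 6676, 6103 and 6630 in the 3 d libraries. Its listed members had a median of 21 reads, against 9 to 11 in the other 5, and 1.41% of them had 2 or 3 reads, against 9.96% to 16.3%. The main results are therefore given with and without this library.

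**Figure D1:**
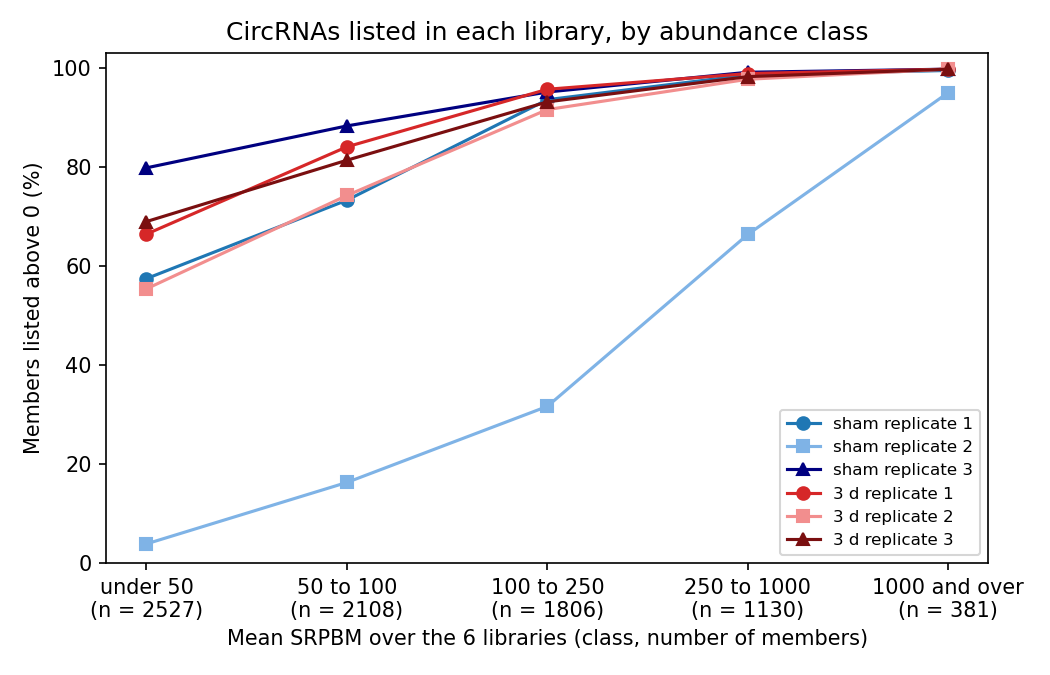
Percentage of members listed above 0 (vertical axis) in each of the 6 libraries (lines), by class of mean SRPBM over the 6 libraries (horizontal axis). Sham replicate 2 runs below the other 5 libraries in every class, from 3.92% in the lowest class to 95.0% in the highest.

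The members were divided into 5 classes by their mean over the 6 libraries, a measure that does not use the group. The class under 50 SRPBM held 2527 members with a median of 4 reads where listed, and the class from 50 to 100 held 2108 with 8 reads. The classes from 100 to 250 and from 250 to 1000 held 1806 and 1130, with 14 and 36 reads, and the class of 1000 SRPBM and over held 381 with 148 reads. In the lowest class, sham replicate 2 listed 3.92% of members and the other 5 libraries 55.4% to 79.8%. From 100 to 250 SRPBM it listed 31.7%, against 91.6% to 95.7%. From 250 to 1000 it still listed only 66.4%, against 97.7% to 99.1%, and at 1000 and over 95.0%, against 99.5% to 99.7%. In the 4 classes under 1000 SRPBM, the shares of sham replicates 1 and 3 overlapped those of the 3 d libraries.

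The number of members listed did not separate the groups. It averaged 5134 ± 2644 in sham and 6470 ± 318 at 3 d (SD, n = 3 each), a ratio of 1.26 with a two-sided exact permutation p = 0.7 (Benjamini-Hochberg adjusted p = 0.7 over 3 tests per library). Leaving out sham replicate 2, the sham mean was 6638 and the ratio was 0.975 (exact permutation p = 0.8). With 3 libraries against 3 this test cannot give a p under 0.1, and with 2 against 3 none under 0.2.

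The signal summed over members was 12.7, 2.89 and 20.4 M SRPBM in sham replicates 1, 2 and 3 and 16.6, 14.5 and 36.1 M in 3 d replicates 1, 2 and 3. The groups overlapped, and only 3 d replicate 3 lay above all sham libraries. The ratio of the means was 1.87 (exact permutation p = 0.4, adjusted p = 0.6) and fell to 1.35 without sham replicate 2 (p = 0.8) and to 1.29 without 3 d replicate 3 (p = 0.8 by the same exact test). Of all circRNA signal, the 10 most abundant members took 85.4%, 45.4% and 87.4% in sham replicates 1, 2 and 3 and 85.7%, 85.2% and 93.1% in the 3 d libraries. Without these 10, the members summed to 1.71, 1.51 and 2.33 M SRPBM in sham and to 2.17, 1.98 and 2.25 M at 3 d, a ratio of 1.15 (exact permutation p = 0.4, adjusted p = 0.6) or 1.06 without sham replicate 2. Sham replicate 3 had the highest of these sums, and sham replicates 1 and 2 lay below all 3 d libraries.

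For single circRNAs, limma was fitted on log2(SRPBM + 23.2) to the 16767 circRNAs that 3 or more of the 15 libraries listed, with Benjamini-Hochberg adjustment over all of them. At an adjusted p under 0.05 it called 9 circRNAs, 5 higher and 4 lower at 3 d, which is 0.0537% of those tested (0.0298% higher and 0.0239% lower). Of the members it called 8, 4 in each direction. By class these were 3 higher and 1 lower at 1000 SRPBM and over, 1 higher and 3 lower from 250 to 1000, and 0 of the 6441 members under 250 SRPBM. An unadjusted limma p under 0.05 was found for 501 of the 7952 members and for 756 of the 16767 tested (4.51%). Without sham replicate 2 limma called 0 circRNAs (0% of 16666 tested), with 458 at an unadjusted p under 0.05 (2.75%), of which 203 were members. The fall was steepest from 250 to 1000 SRPBM, where members with an unadjusted p under 0.05 went from 136 to 19. Leaving out both sham replicate 2 and 1 h replicate 1 gave 7 calls, 5 of them among the 9. The library 1 h replicate 1 is outside this comparison and also lists few circRNAs. These 5 were CBT15_circR_40191, CBT15_circR_22046, CBT15_circR_22135, CBT15_circR_17098 and CBT15_circR_19961. Limma called 4 circRNAs without sham replicate 1, 14 without sham replicate 3, 1 without 3 d replicate 1 and 0 without 3 d replicate 3 (502 at an unadjusted p under 0.05).

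The split of the calls by direction depended on scaling. Scaled to the total circRNA signal of each library, the data gave limma 7 calls, 2 higher and 5 lower, and scaled to that signal without the 10 most abundant members 6 calls, 2 higher and 4 lower. Total scaling moved the median change of the whole tested table from 0.20 to 0 on the log2 scale. The total was 3.05 M SRPBM in sham replicate 2 and 12.9 to 36.3 M in the other 5 libraries. In sham replicate 2 the most abundant circRNA, CBT15_circR_5191, was listed at 0. Of the 6 libraries, total scaling therefore raised the other values of sham replicate 2 the most. With sham replicate 2 left out and total scaling, limma called 1 circRNA, CBT15_circR_22135, lower (log2 change -2.73, adjusted p = 0.00452); with the scaling that omits the 10 most abundant it called CBT15_circR_40191, higher (3.97, adjusted p = 0.0471). These runs were added after seeing the data.

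Most members had positive fitted changes, and this lean went with sham replicate 2. The median log2 change was 0.55 over members and 0.20 over all tested circRNAs, and 5649 members (71.0%) lay above 0. By class the median was 0.43 under 50 SRPBM, 0.63 from 50 to 100, 0.84 from 100 to 250, 0.41 from 250 to 1000 and 0.24 at 1000 and over. Without sham replicate 2 the medians were 0.097, 0.11, 0.14, 0.090 and 0.10 in the same order, and 0.10 over all members, of which 55.5% lay above 0. The 1467 members listed in all 6 libraries had a median of 0.042 with sham replicate 2 in the fit and 0.051 without it. This set leaves out by definition every member at 0 in sham replicate 2, so its medians say nothing about those members. These changes are on a log2 scale with a pseudocount and understate the change of low circRNAs.

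**Figure D2:**
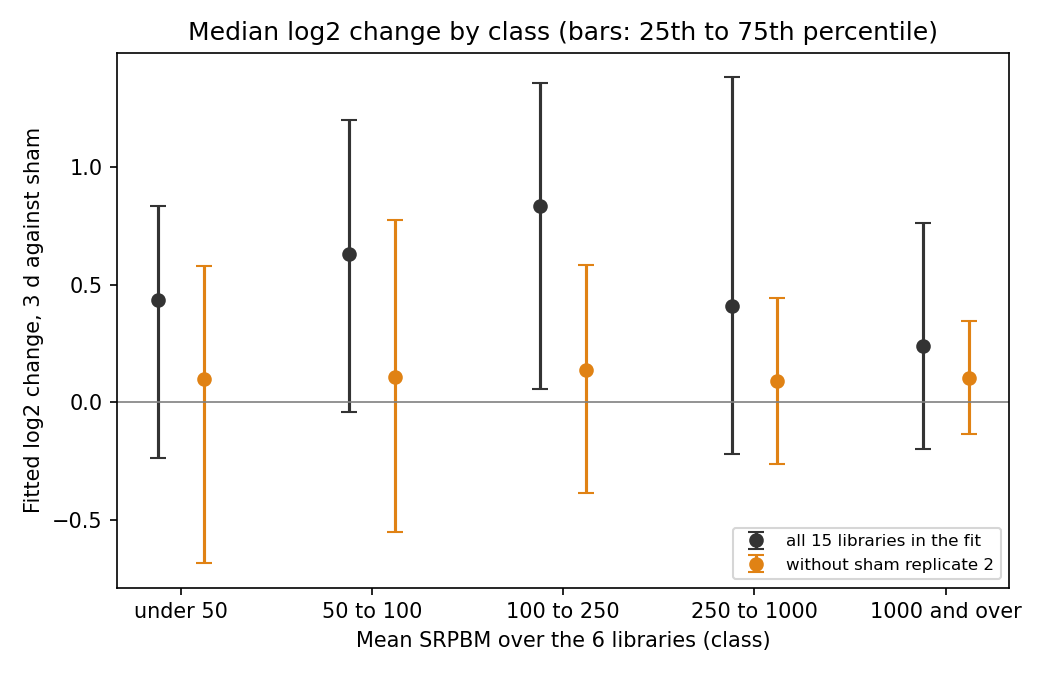
Fitted log2 change at 3 d against sham (vertical axis) by class of mean SRPBM (horizontal axis); points are medians over members and bars run from the 25th to the 75th percentile, with all libraries (black) and without sham replicate 2 (orange). The black medians peak at 0.84 from 100 to 250 SRPBM, and the orange ones lie between 0.090 and 0.14.

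Over all members, large fitted changes were near equal in number in both directions once that library was left out, but the classes differed. With all libraries, 2350 members had a log2 change above 1 and 443 one below -1, against 17.9% and 5.11% of all circRNAs tested. The numbers without sham replicate 2 were 905 and 864 members, against 9.42% and 10.1% of those tested. Under 50 SRPBM they were then 255 and 390, from 50 to 100 they were 373 and 273, and from 100 to 250 they were 200 and 142. From 250 to 1000 SRPBM, members above 1 went from 384 to 69 and members below -1 from 75 to 53. At 1000 SRPBM and over, 8 of 381 members lay above 1 and 6 below -1 without sham replicate 2, against 60 and 10 with it.

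The difference between 2 libraries of different groups was compared with that between 2 libraries of the same group. Over all members, the median absolute log2 difference was 0.79 to 0.88 for the 3 pairs of 3 d libraries and 1.0 between sham replicates 1 and 3. It was 0.70 to 1.05 for the 6 pairs of sham replicate 1 or 3 with a 3 d library, so the range between groups held all the values within groups. For the pairs with sham replicate 2 it was 1.49 and 2.0 within sham and 1.77 to 2.04 with the 3 d libraries. The spread narrowed with abundance: within 3 d it went from 1.17 to 1.29 in the class under 50 SRPBM to 0.37 to 0.43 at 1000 and over. In that highest class sham replicates 1 and 3 differed by 0.80, more than any pair of either with a 3 d library (0.28 to 0.69).

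**Figure D3:**
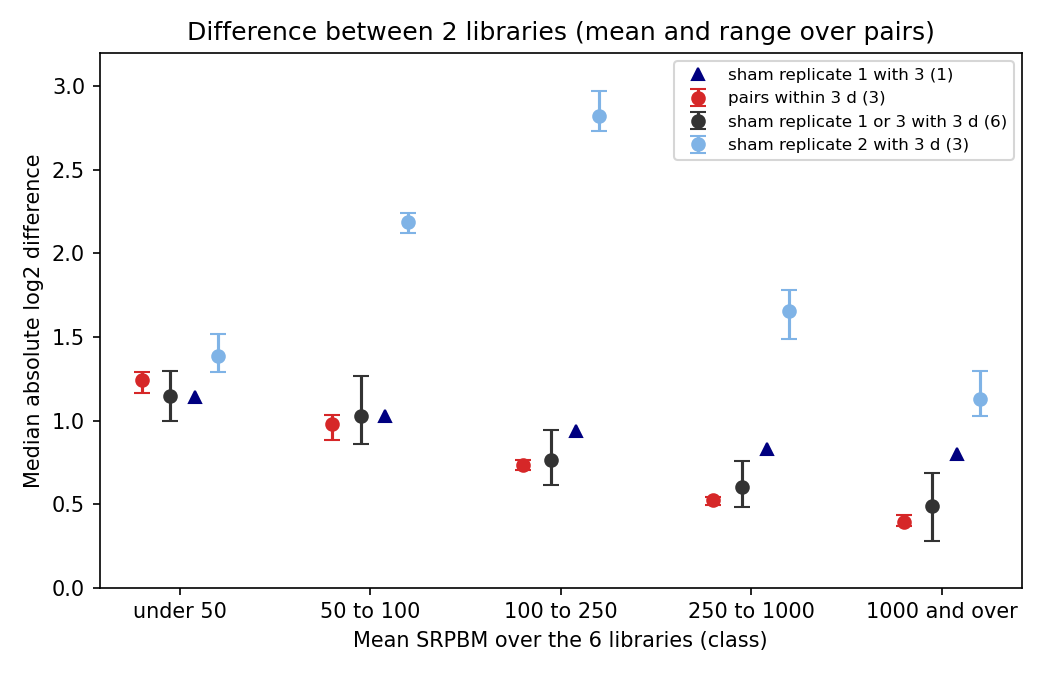
Median absolute difference on log2(SRPBM + 23.2) between 2 libraries (vertical axis) by class of mean SRPBM (horizontal axis); points are means over the pairs named in the key and bars their lowest and highest pair. From 100 SRPBM up, sham replicates 1 and 3 (triangles) differ by more than the mean of pairs between groups, and pairs of sham replicate 2 with 3 d have the highest mean in every class.

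Rank correlations across the 1467 members listed in all 6 libraries also set sham replicate 2 apart, as a description, since circRNAs are not independent replicates and each library's values share its depth. Spearman's rho was 0.85 to 0.87 within 3 d, 0.77 between sham replicates 1 and 3, and 0.79 to 0.88 between these 2 and the 3 d libraries. The highest value of all, 0.88, joined sham replicate 3 with 3 d replicate 3. Sham replicate 2 had 0.52 and 0.71 with the other sham libraries and 0.55 to 0.63 with the 3 d libraries.

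Libraries that do not overlap between the groups were counted next. In 610 members all 3 d values lay above all sham values (3.64% of the circRNAs tested), and in 148 below them (0.883%). These are the same circRNAs in both counts, because such a circRNA is listed in at least 3 of the 6 libraries. Leaving that library out, the counts were 691 members higher (4.12% of those tested) and 568 lower. The rule limits the lower count and not the higher one, since a circRNA listed only in sham replicates 1 and 3 is not a member; over all circRNAs tested, 949 (5.66%) were lower. In the class under 50 SRPBM, members above all sham libraries numbered 196 (7.76% of the class) and members below them 12 (0.475%) with all libraries. Without sham replicate 2, which listed 3.92% of this class, both counts were 197 (7.80%). At 1000 SRPBM and over there were 14 (3.67%) and 5 (1.31%) with all libraries. Without sham replicate 2 there were 21 (5.51%) and 13 (3.41%).

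Members listed in only one of the groups were counted too. In 141 members no sham library and all 3 d libraries were above 0 (0.841% of circRNAs tested), and in 34 all sham libraries and no 3 d library (0.203%). Of the 141, 109 were under 50 SRPBM and none reached 250, with a highest mean of 108 SRPBM. Of the 34, 4 lay between 250 and 1000, with a highest mean of 338 SRPBM. Leaving out sham replicate 2, 152 members were listed in neither of the other sham libraries and in all at 3 d. The count of 34 cannot change in this way, since a member at 0 in all 3 d libraries must be listed in all sham libraries. Each of the 34 is thus listed in sham replicate 2, which listed only 26.7% of members. The higher and lower counts are therefore not on the same footing. A lower count without sham replicate 2 over all circRNAs tested was not taken. A further 3585 members were listed in each of the 5 remaining libraries, and 2118 of these were at 0 in sham replicate 2.

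The libraries at other times, which the rule did not use, were read for these 2 sets. Of the 141 listed only at 3 d, 31 were listed in none of the 3 libraries at 1 h and 3 in all of them, and 1 was listed in none of the 9 libraries at 1, 6 and 12 h. They were above 0 in 40.2% of values at 1 h, 56.5% at 6 h and 52.2% at 12 h. The 2309 members listed in exactly 3 of the 6 libraries, both sets among them, had 43.7%, 58.1% and 57.8%. Of the 34 listed only in sham, 5 were listed in none of the 3 libraries at 1 h and 2 in all, and 0 of the 34 were missing from all 9. They were above 0 in 51.0%, 53.9% and 49.0% of values at 1, 6 and 12 h. In all, 1 h replicate 1 listed 1807 of the members, against 6206 and 6854 in 1 h replicates 2 and 3. This holds down the shares at 1 h and the numbers listed in all 3 libraries there. The 6 h and 12 h libraries carry another title prefix. A difference between the shares was not tested.

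The called circRNAs are described singly, the higher ones first. In both directions the 2 with the largest change among calls whose libraries do not overlap are given before the rest, so the gap between their groups adds no support to their calls. Values at other times are given beside them as a description.

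CBT15_circR_40191 was called higher at 3 d. Limma also called it higher against sham at 1 h, 6 h and 12 h. The log2 changes were 4.66, 4.26 and 4.22 (limma adjusted p = 0.00196, 0.00731 and 0.00471). It was listed at 0, 0 and 615 SRPBM in sham replicates 1, 2 and 3 and lay at 1696, 1505 and 1255 at 3 d, from 142, 135 and 87 reads. The single sham library that lists it is below the lowest 3 d library, and the 3 d libraries lie close together (log2 change 4.42, SE 0.86, limma adjusted p = 0.00195). An SE from its own 6 libraries was 1.60. Without sham replicate 2 the change was 3.62 (SE 0.83, limma adjusted p = 0.178). With 1 h replicate 1 also left out, the adjusted p was 1.03e-06. The adjusted p was 0.187 without sham replicate 1, 0.156 without 3 d replicate 1 and 0.161 without 3 d replicate 3. At 1 h it lay at 805, 2088 and 3119 SRPBM, so the value at 3 d was within the range at 1 h (3 d against 1 h: log2 change -0.24, adjusted p = 1).

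CBT15_circR_22046 rose too. It was listed at 0, 0 and 1449.9 SRPBM in sham and lay at 1696, 1505 and 2467 at 3 d. Sham replicate 3 lay just below the lowest 3 d library, and the other 2 sham libraries were at 0 (log2 change 4.34, SE 0.91, limma adjusted p = 0.00769). An SE from its own 6 libraries was 2.01. With both sham replicate 2 and 1 h replicate 1 left out, the limma adjusted p was 0.00088. The change was 3.34 (SE 0.91, adjusted p = 0.63) without sham replicate 2 alone. The call was also lost without sham replicate 1 (log2 change 3.34, adjusted p = 0.526). Without 3 d replicate 1, 2 or 3 the change was 4.40, 4.48 and 4.13, with adjusted p = 0.254, 0.0669 and 0.486. At 1 h it lay at 123, 0 and 1272 SRPBM, and at 6 h and 12 h between 1045 and 3143 in all 6 libraries. Limma also called it higher against sham at 6 h and 12 h (adjusted p = 0.0308 and 0.00654), but not at 1 h.

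CBT15_circR_5191, the most abundant circRNA, was called higher, on a sham library at 0. Sham replicates 1, 2 and 3 held 9.15, 0 and 15.2 M SRPBM and the 3 d libraries 12.0, 10.2 and 28.7 M, so 3 d replicates 1 and 2 fell between sham replicates 1 and 3. Its log2 change was 6.69 (SE 1.24, limma adjusted p = 0.00106) and became 0.37 (SE 1.44, adjusted p = 1) without sham replicate 2. Its own 6 libraries gave an SE of 6.34, and the exact permutation p was 0.4. It was listed at 0 in 3 other libraries of the series, 1 h replicates 1 and 2 and 6 h replicate 3. Against the same sham libraries, limma called it lower at 1 h (log2 change -6.40, adjusted p = 0.00334). At 12 h it was called higher (6.24, limma adjusted p = 0.00471).

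CBT15_circR_5185, second in abundance, was also called higher, although its groups overlap. Its values were 1.54, 1.07 and 2.56 M SRPBM in sham against 2.10, 1.99 and 4.90 M at 3 d. Sham replicate 3 was above 2 of the 3 d libraries, and 3 d replicate 3 was highest (log2 change 0.76, limma SE 0.14, adjusted p = 0.00108). An SE from its own 6 libraries was 0.56, since limma draws its spread towards that of circRNAs of like abundance, and the exact permutation p was 0.3. The call was lost without sham replicate 2 (log2 change 0.46, limma adjusted p = 1) and without 3 d replicate 3 (0.34, limma adjusted p = 1). Scaled to total circRNA signal the direction turned, to -0.39 (limma adjusted p = 0.872). With that scaling and without sham replicate 2 the change was 0.11.

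The fifth higher call, CBT15_circR_19961, was not a member, being listed in 2 of the 6 libraries. It was at 0 in all 3 sham libraries and at 4144, 0 and 9074 SRPBM at 3 d (limma adjusted p = 0.00548, and 0.178 without sham replicate 2). With 1 h replicate 1 also left out, the adjusted p was 0.00122. For this circRNA limma's SE was 1.10, against 2.70 from its own 6 libraries. It was listed in 2 other libraries of the series, at 8317 SRPBM in 1 h replicate 2 and 3125 in 6 h replicate 1. It is among the circRNAs with the smallest p without sham replicate 2, as is CBT15_circR_17098 below.

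**Figure D4:**
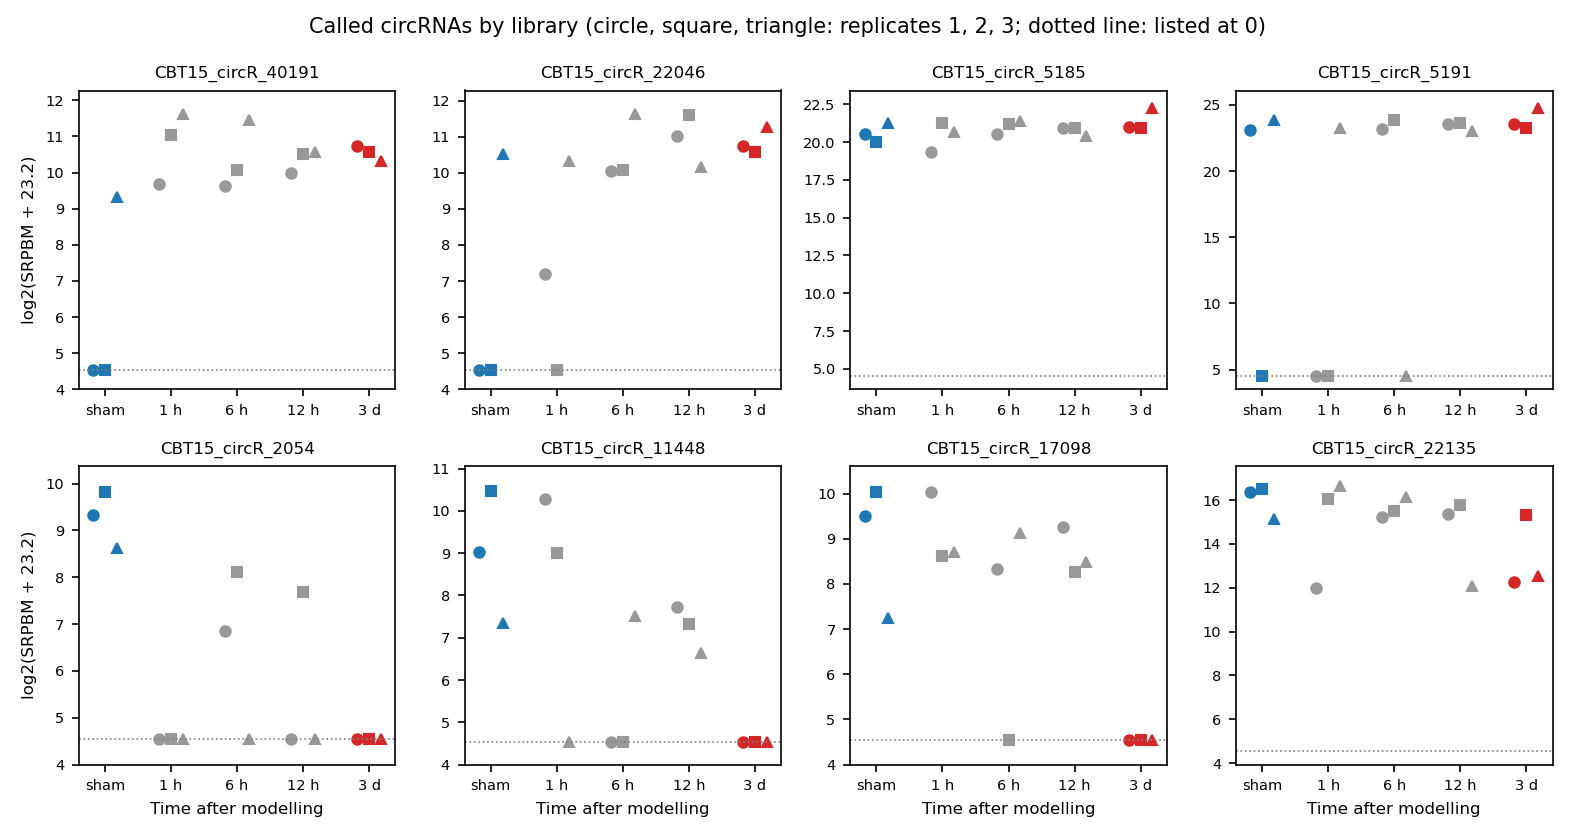
Level on log2(SRPBM + 23.2) (vertical axes) in each of the 15 libraries by time (horizontal axes) for the 8 members called at 3 d against sham, the 4 higher in the upper row and the 4 lower in the lower row; each point is a library and the dotted line marks a value listed at 0. CBT15_circR_40191 is above its sham libraries at every time, and CBT15_circR_2054, CBT15_circR_11448 and CBT15_circR_17098 are at 0 in all 3 d libraries.

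CBT15_circR_2054 was called lower at 3 d, and also against sham at 1 h (limma adjusted p = 0.0143). The sham libraries held 621, 878 and 371 SRPBM, from 55, 58 and 32 reads, and it was listed at 0 in all 3 d libraries (limma log2 change -4.72, SE 0.99, adjusted p = 0.00717). Since one group is at 0, the size depends on the pseudocount and no fold is given. It was at 0 in all 3 libraries at 1 h too, and was listed in 2 libraries at 6 h (91.9 and 253 SRPBM) and in 1 at 12 h (181 SRPBM), each below the lowest sham library. Leaving out sham replicate 2 gave a limma change of -4.44 (SE 1.08, adjusted p = 0.333), and without sham replicate 1 the adjusted p was 0.0796. Without 3 d replicate 1, 2 or 3 it was 0.163, 0.0669 and 0.211.

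CBT15_circR_11448 was called lower, from 496, 1393 and 139 SRPBM in the sham libraries to 0 in all 3 d libraries (limma log2 change -4.41, SE 1.0, adjusted p = 0.0274). Sham replicate 2 held the highest value and sham replicate 3 the lowest, from 12 reads. The change was -3.65 (SE 1.06, limma adjusted p = 1) without sham replicate 2, and without sham replicate 1 the adjusted p was 0.181. Without 3 d replicate 1, 2 or 3 it was 0.343, 0.200 and 0.486. At 1 h it was at 1214, 486 and 0 SRPBM, so that 1 h replicates 1 and 2 lay within the range of sham.

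CBT15_circR_17098 was called lower as well, with 699.5, 1029.6 and 128 SRPBM in sham replicates 1, 2 and 3 and 0 in all 3 d libraries (limma log2 change -4.39, SE 0.97, adjusted p = 0.0173). It was lower at 3 d than at 1 h as well, where all 3 libraries listed it, at 1023, 368 and 394 SRPBM. At 6 h and 12 h it was listed in 5 of 6 libraries, at 283 to 593 SRPBM. The limma adjusted p was 0.442 (log2 change -3.83, SE 0.98) without sham replicate 2, and 0.00328 with 1 h replicate 1 also left out. Without sham replicate 1 it was 0.285, and without 3 d replicate 1, 2 or 3 it was 0.254, 0.135 and 0.416. For CBT15_circR_2054, CBT15_circR_11448 and CBT15_circR_17098, SEs from their own 6 libraries were 0.35, 0.90 and 0.86, each below limma's. Their 3 d values were all 0 and added no spread, which lowers these SEs, so they give no support to the calls.

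CBT15_circR_22135, sixth in abundance, was called lower with groups that overlap. Its sham values were 85892.5, 92711 and 35842 SRPBM and its 3 d values 4837, 40887 and 5972.5. Sham replicate 3 and 3 d replicate 2 were alike, and the other libraries of each group were far apart (log2 change -2.64, SE 0.46, limma adjusted p = 0.000371, exact permutation p = 0.2). Its own 6 libraries gave an SE of 1.07. Without sham replicate 2 the change was -2.39 (SE 0.63, limma adjusted p = 0.489). With 1 h replicate 1 also left out, the adjusted p was 0.000269. The mean at 3 d was 0.241 of the sham mean, or 0.283 without sham replicate 2. The adjusted p was 0.343 without 3 d replicate 1 and 0.211 without 3 d replicate 3. Values as low as at 3 d were also found in 1 h replicate 1 (3983 SRPBM) and 12 h replicate 3 (4243 SRPBM), beside values of 38806 to 103409 in the other libraries of 1 h, 6 h and 12 h.

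The other 7 of the 10 most abundant members did not pass the test in the main fit, and each was listed in all 15 libraries. CBT15_circR_19347 lay at 51763 ± 26118 SRPBM in sham and 78536 ± 3606 at 3 d (SD, n = 3). Sham replicate 3, at 81531, was above all 3 d libraries (log2 change 0.71, SE 0.32, limma adjusted p = 0.952, or 0.44, SE 0.48, without sham replicate 2). With no filter on the circRNAs tested, limma called CBT15_circR_19347 higher (adjusted p = 1.69e-12), although its groups overlap. CBT15_circR_24056 had 47036, 19093 and 109439 SRPBM in the sham libraries, and its 3 d values of 47601, 66179 and 57547 were inside that range. Its change turned from 0.29 (SE 0.37) to -0.34 (SE 0.52) without sham replicate 2.

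CBT15_circR_9992 lay at 48853 ± 23945 SRPBM in sham and 42565 ± 9948 at 3 d (SD, n = 3), and CBT15_circR_43355 at 32349 ± 17766 and 21840 ± 5747. In both, sham replicate 2 was highest and sham replicate 3 lowest of the 6 libraries, and the 3 d libraries lay between. For CBT15_circR_43355 the mean at 3 d was 0.675 of the sham mean, or 0.942 without sham replicate 2 (log2 change -0.44 and -0.030). CBT15_circR_10908 lay at 18553 ± 3555 SRPBM in sham and 14755 ± 2169 at 3 d, and CBT15_circR_22130 at 16609 ± 3316 and 12260 ± 939, each with overlapping groups. Their log2 changes were -0.32 and -0.42, and -0.17 and -0.58 without sham replicate 2. For CBT15_circR_22130 the overlap came only from sham replicate 2, at 13128 SRPBM. Its 3 d values of 11751, 13343 and 11685 were below sham replicates 1 and 3, at 16969 and 19730.

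CBT15_circR_6871 had the smallest SE from its own 6 libraries among the 10 (0.082), while over all 15 libraries it ran from 7666 to 30762 SRPBM. Its values were 16235, 16549.5 and 14731 SRPBM in sham against 17650.4, 15338 and 15667 at 3 d, a ratio of 1.02 (log2 change 0.033, SE 0.45 from limma). Sham replicate 2 was thus level with the other libraries for this circRNA. Over the 10 most abundant members, 5 had fitted changes above 0 and 5 below, and exact permutation p-values were 0.2 or above (adjusted p 0.667 or above over the 10).

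**Figure D5:**
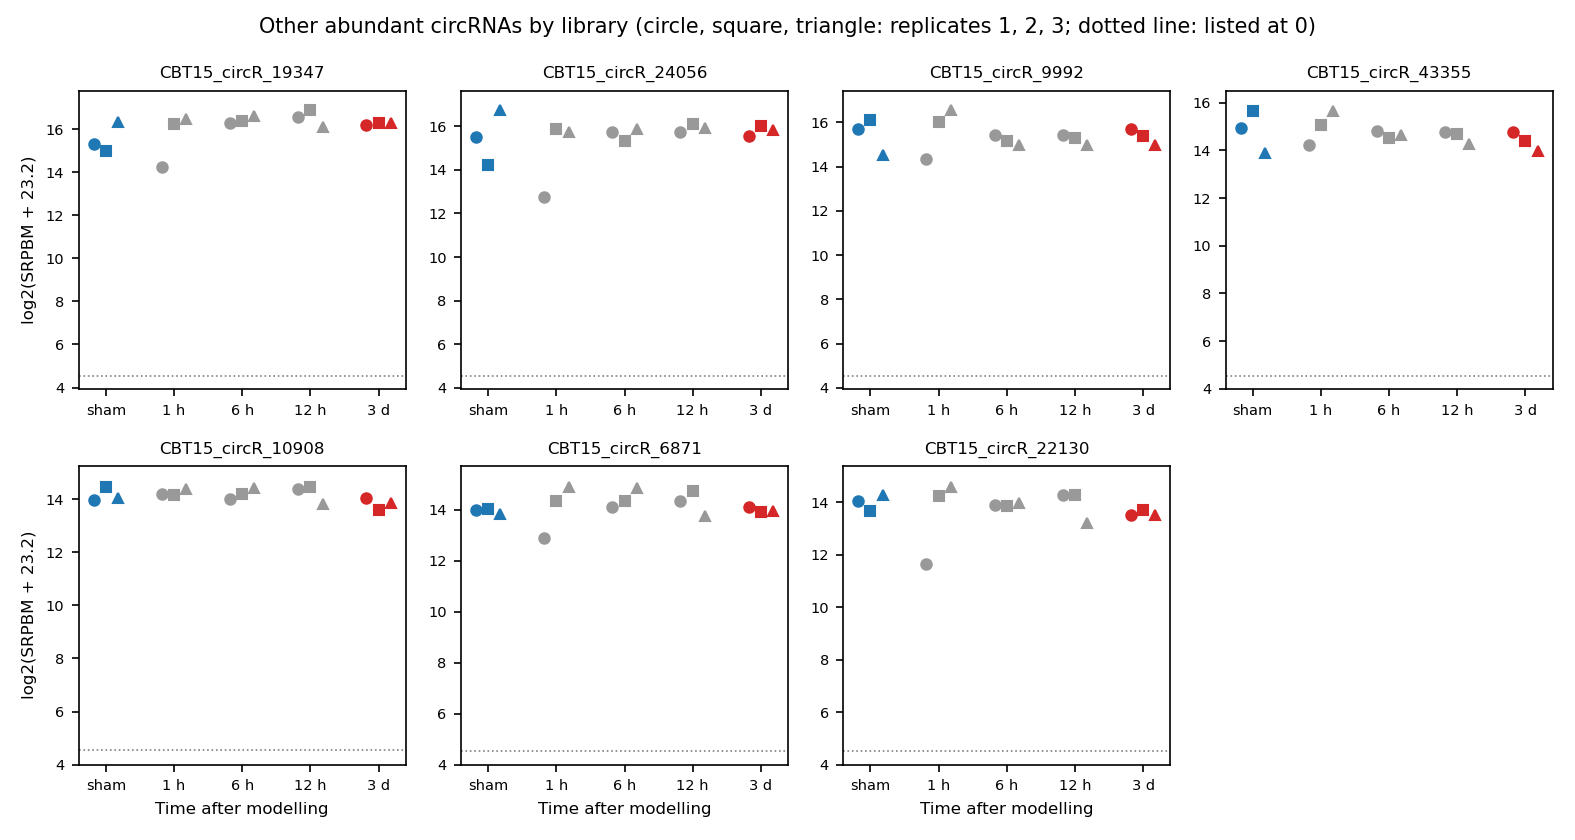
Level on log2(SRPBM + 23.2) (vertical axes) in each of the 15 libraries by time (horizontal axes) for the 7 of the 10 most abundant members that did not pass the test; each point is a library. The 3 d libraries (red) overlap the sham libraries (blue) in every panel, for CBT15_circR_22130 only through sham replicate 2.

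Voom, which weights each value by its reads, called 5 circRNAs in place of 9 (0.0298% of those tested), 1 higher (0.00596%) and 4 lower (0.0239%), all of them members, and shared 3 with limma: CBT15_circR_2054, CBT15_circR_11448 and CBT15_circR_17098. The other 2, named after their values were seen, were not called by limma on log values. CBT15_circR_32635 had no value above 0 in sham and 287, 201 and 159 SRPBM at 3 d (voom adjusted p = 0.0133, limma adjusted p = 0.82), and lay at 245.5, 154 and 203 at 1 h. Of the 15 libraries, 12 listed it, all but the sham libraries. CBT15_circR_39077 went from 699.5, 1181 and 81.2 SRPBM in the sham libraries to 0 in all 3 d libraries (voom adjusted p = 0.0267, limma adjusted p = 0.0567). In a run added after seeing the data, voom without sham replicate 2 called 3 circRNAs (0.018% of 16666 tested), 1 higher (0.006%) and 2 lower (0.012%): CBT15_circR_2054 (adjusted p = 0.00197), CBT15_circR_17098 (0.0411) and CBT15_circR_32635 (0.0411). CBT15_circR_11448 and CBT15_circR_39077 then had voom adjusted p = 0.118 and 0.167. Limma without that library gave CBT15_circR_32635 and CBT15_circR_39077 an adjusted p = 1. Limma without the trend of the spread on abundance called 0 circRNAs, with 779 at an unadjusted p under 0.05.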

How the data were processed

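Blood RNA was stabilized and extracted with the PAXgene system and made into libraries with an NEBNext Ultra kit for paired-end sequencing, per the labels' protocols. The deposited table holds signal in SRPBM as normalized by the authors, from find_circ, per the file's name. Bowtie 0.12.2 and the build Rnor_6.0 are listed in the submitters' processing notes, with no role; thresholds on circRNA calls are not stated in those sources. Each value above 0 was a whole multiple of its library's step (100% within 0.01 read). No 2 libraries were identical (0 pairs).

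The model was fitted with limma 3.58.1 (R 4.3.3), with empirical Bayes moderation and a trend of the spread on abundance, on log2(SRPBM + 23.2), the pseudocount being the median over libraries of the smallest value above 0. Per-library sums were compared with exact permutation tests. Named were up to 2 calls per direction with the largest change and no overlap, the 10 most abundant members, and up to 2 per direction with the smallest p without sham replicate 2. The members, classes and lists were chosen with earlier results of these data known. Alternatives were other pseudocounts, filters, scalings, spread models and sets of libraries.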

Additional observations from a re-analysis of the deposited data

Results flagged for a closer look

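Of the 18 named circRNAs, 3 differed between their changes from sham at 3 d and at 1 h, tested as the contrast of 3 d with 1 h in the same limma fit with adjustment over all circRNAs. CBT15_circR_5191 was higher at 3 d than at 1 h by 13.1 on the log2 scale (adjusted p = 2.08e-18), with 1 h replicates 1 and 2 listed at 0. The third library, 1 h replicate 3, held 9.85 M SRPBM, close to the 10.2 M of 3 d replicate 2. Of the 15 libraries, 1 h replicate 1 listed the fewest circRNAs (2551). Against sham, limma's SE for CBT15_circR_5191 was 1.24, while its own 6 libraries gave 6.34. An SE from its own libraries was not taken for 3 d against 1 h. CBT15_circR_5185 was higher at 3 d by 0.95 (adjusted p = 8.91e-07), with 0.656, 2.54 and 1.69 M SRPBM at 1 h against 2.10, 1.99 and 4.90 M at 3 d. These groups overlap, since 1 h replicate 2 was above 3 d replicates 1 and 2. CBT15_circR_17098 had a log2 change of -4.58 from 1 h to 3 d (adjusted p = 0.0141) and was listed in all 1 h and no 3 d libraries.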

How the results depend on the processing

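The 9 calls became 0 with a pseudocount of 1 SRPBM (626 at an unadjusted limma p under 0.05), with the filter of at least 8 of 15 libraries (396), with members only in the fit of 5 groups (474), in limma without the trend (779) and, added after seeing the data, with only the members above 0 in all 6 libraries (24). They became 1 with 10 times the pseudocount, 3 with members only and 2 groups, and 5 by voom. With sham replicate 2 also left out (added after seeing the data) there were 3 by voom, and 1 with either scaling by circRNA signal. Leaving out 1 library at a time gave 0 to 14 calls: 0 without sham replicate 2 or 3 d replicate 3, 1 without 3 d replicate 1, 4 without sham replicate 1, 6 without 3 d replicate 2 and 14 without sham replicate 3. Without both sham replicate 2 and 1 h replicate 1 limma called 7, of which 5 were among the 9; the median SE of members was then 0.85, against 1.01 without sham replicate 2 alone. With no filter 8 were called and with median-ratio scaling 6. Of the 8, 6 were among the 9, and the others were CBT15_circR_19347 (limma adjusted p = 1.69e-12) and CBT15_circR_39077 (0.0328). Same-numbered sham and 3 d libraries deviated together with correlations of 0.065, 0.0046 and 0.13, so the numbers were not taken to pair the libraries; with the replicate block limma called 10, with 9 of the 9 among them. The median change of members was 1.58 with a pseudocount of 1 SRPBM and ranged from 0.10 to 0.93 on leaving out a library; scaled to total signal without sham replicate 2 it turned to -0.13.

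Members listed per library had a ratio of 0.975 to 1.56, turning below 1 without sham replicate 2, the summed signal one of 1.29 to 2.87, and the sum without the 10 most abundant one of 1.06 to 1.33. Over the named circRNAs, 21 of 400 values turned sign. A further 128 lost a call held in the main fit and 8 gained a call. Scaled to total signal, those that turned sign were CBT15_circR_5185 (-0.39), CBT15_circR_19347 (-0.44), CBT15_circR_24056 (-0.86) and CBT15_circR_6871 (-1.12). In that scaling without sham replicate 2, CBT15_circR_5185 was at 0.11 and CBT15_circR_19347 at 0.091, so their sign did not turn. CBT15_circR_24056 was at -0.34 without sham replicate 2, alone or with 1 h replicate 1. CBT15_circR_9992 was at 0.26 in both of these, 0.039 without sham replicate 1, 0.097 without 3 d replicate 3 and 0.0026 by voom. CBT15_circR_6871 was at -0.018 without sham replicate 3, -0.029 without 3 d replicate 1 and -0.19 scaled without the 10 most abundant members. With sham replicate 2 also left out, CBT15_circR_24056 was at -0.32 by voom, -0.69 scaled to total signal and -0.43 scaled without the 10 most abundant members, CBT15_circR_9992 at 0.28 by voom and 0.16 in the last of these scalings, and CBT15_circR_6871 at -0.28 and -0.026 in the 2 scalings. On leaving out 1 library, CBT15_circR_24056 ranged from -0.34 to 0.92, CBT15_circR_9992 from -0.54 to 0.26 and CBT15_circR_6871 from -0.029 to 0.072. The cause was not tested. EdgeR and DESeq2 were not run.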

Other observations

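CBT15_circR_40191 and CBT15_circR_22046, the 2 members with the largest called rise among those whose libraries do not overlap, held the same value in 2 libraries: 142 reads each in 3 d replicate 1 and 135 reads each in 3 d replicate 2. They differed in 3 d replicate 3 (87 and 171 reads) and in sham replicate 3 (53 and 125 reads), and both were listed at 0 in sham replicates 1 and 2. No other pair of the 18 named circRNAs shared a value above 0 in 2 or more libraries. The table does not show whether the 2 circRNAs share a host gene or a splice site.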
